A study of Mus musculus with 12 samples.

Results

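The genes that build the motile cilium were examined in whole lungs of miR-30a -/- mice, across sex and neonatal oxygen exposure. They were taken from the count table as every protein_coding gene whose symbol begins with Dnah, Dnai, Dnal, Dnaaf, Rsph or Tekt, together with Foxj1, which gave 39 genes of the 55487 in the table. They comprised 15 Dnah genes, 2 Dnai genes (Dnaic1 and Dnaic2), 3 Dnal genes, 5 Dnaaf genes, 8 Rsph genes, 5 Tekt genes and Foxj1. One further matching symbol, the antisense gene Dnah2os, has another biotype and was not included.

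RNA-Seq covered 12 lungs, 3 in each of 4 groups: males and females kept in room air, and males and females exposed to hyperoxia (95% FiO2) from postnatal day (PND) 1 to PND 5. All lungs were collected on PND 21, after a period in room air, from mice of strain C57BL/6J in which CRISPR/Cas9 had removed the miR-30a gene. The room air controls carry the same deletion, and wild-type lungs were not analysed here. Pups of several litters were mixed before they were assigned to an exposure, the litter of each lung is not given, and the right ventricle was flushed with PBS, so that blood content can differ between lungs.

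Motile cilia are the beating projections of the multiciliated cells that line the airways, and in the lung they move mucus and trapped particles towards the throat. Each carries a ring of microtubule doublets around a central pair. Outer and inner dynein arms, motors assembled from Dnah heavy chains with intermediate and light chains, slide the doublets, radial spokes (Rsph proteins) pass signals from the central pair to the arms, and tektins (Tekt proteins) form filaments along the doublets. The arms are assembled beforehand in the cytoplasm with the help of the Dnaaf factors. The transcription factor FOXJ1 switches on this programme, and RFX factors bind the X-box, an inverted repeat in many ciliary promoters. In whole lung, fewer multiciliated cells and less RNA per cell cannot be told apart.

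Promoter windows from RefSeq on GRCm38.p6, running from 250 bases before to 50 after a gene start, were at hand for 33 of the 39 genes. Matches to the X-box are shown because it is the promoter element best known from ciliary genes. In the runs below, written in the direction of the gene, capitals mark the X-box match and lower case marks up to 15 flanking bases.
Dnah7a: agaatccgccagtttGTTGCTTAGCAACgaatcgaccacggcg
Dnah7b: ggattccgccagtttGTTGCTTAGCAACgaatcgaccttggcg
Dnah7c: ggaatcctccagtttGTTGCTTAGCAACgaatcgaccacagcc
Dnah6: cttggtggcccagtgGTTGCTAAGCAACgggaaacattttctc
Dnah9: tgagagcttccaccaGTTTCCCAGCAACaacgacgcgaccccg
Dnah5: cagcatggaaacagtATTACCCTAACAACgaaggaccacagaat
Dnaic2: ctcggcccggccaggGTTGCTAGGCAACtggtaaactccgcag
Dnaic1: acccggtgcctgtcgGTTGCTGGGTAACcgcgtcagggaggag
Tekt2: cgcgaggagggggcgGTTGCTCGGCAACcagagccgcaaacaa

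The 3 Dnah7 paralogs, inner arm heavy chains with near-identical sequence, carried the same match, at chr1:53706814-53706856 (Dnah7a, minus strand), chr1:46066814-46066856 (Dnah7b, plus strand) and chr1:46425434-46425476 (Dnah7c, plus strand). The runs of Dnah6 and Dnah9 lie at chr6:73221640-73221682 and chr11:66168606-66168648, both on the minus strand. Dnah5 has its run at chr15:28203695-28203738 on the plus strand. Those of the intermediate chains lie on the plus strand at chr11:114727371-114727413 (Dnaic2) and chr4:41569760-41569802 (Dnaic1), and that of Tekt2 on the minus strand at chr4:126325690-126325732.

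A degenerate X-box, searched on both strands, was found in the windows of 27 of the 33 genes (81.8%), against 37.9% of the 27025 genes with a promoter window. It began within the last 100 bases before the start in 18 of them (54.5% of the 33), against 15.5% of all genes. The strict palindrome, GTTNCC followed after 0 to 3 bases by GGNAAC, was found in 0 of the 33 and in 0.936% of all genes, and the degenerate form was chosen after this was seen. A forkhead motif, TGTTTAC on either strand, was present in 2 of the 33 (6.06%, Tekt3 and Dnah17), against 4.05% of all genes. In Dnah17, which held both motifs, they did not overlap. These matches are descriptions of letters and show no binding, and the Dnah7 paralogs are not independent of each other. No window was given for Foxj1, Dnah3, Rsph10b, Rsph1, Rsph4a and Dnaaf1.

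**Figure D1:**
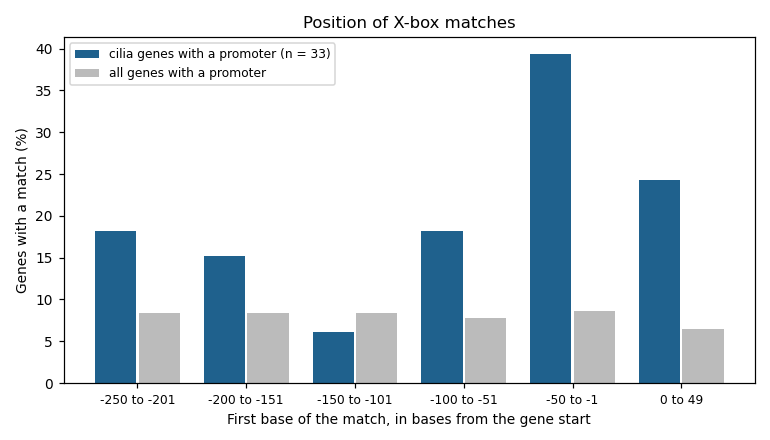
Share of genes (vertical axis, %) with a degenerate X-box match that begins in each 50-base bin from the gene start (horizontal axis), for the 33 cilia genes with a promoter window and for all genes with one. The bin just before the start held a match in 39.4% of the cilia genes and 8.57% of all genes.

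Depth ran from 8763033 to 16741694 counts per lung, so that 3 counts, taken as the smallest detectable level, corresponded to 0.191 to 0.327 CPM (read counts scaled to a common library size, here by upper-quartile normalization). The sex markers Xist and Ddx3y matched the labelled sex in all 12 lungs. Mir30a had 0 counts in all of them, which does not test the deletion, since no wild-type lung was analysed here. Lung markers were present: Sftpc of alveolar type 2 cells ranged from 1970 to 5233 CPM and Scgb1a1 of club cells from 3809 to 11066 CPM. Olfactory and vomeronasal receptor genes, which lung should not use, took 0.453% to 1.04% of the counts (the receptor share), and their reads per kilobase of exon were used as the background. The red cell markers moved with exposure, 3 of 5 being called lower after hyperoxia over both sexes. Their summed level was 5118 to 7881 CPM in room air and 1247 to 4650 CPM after hyperoxia, and its part in the results was not tested.

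One lung, room air female 5, stood apart. It had the highest level of all 12 lungs for 12 of the 39 cilia genes and the lowest for 5, whereas 14.6% of all genes tested were highest and 22.7% lowest in it. Hyperoxia male 2 was highest for 8 and lowest for 3, and room air female 2 highest for 0 and lowest for 7. Shares over all genes were not computed for these lungs. In room air female 5, Foxj1 stood at 2.26 times the median of the other 11 lungs, Dnah6 at 1.65, Dnah5 at 1.60, Dnah12 at 1.56, Dnaaf2 at 1.53 and Rsph4a at 1.40 times. Next came Rsph9, Dnah3, Rsph10b, Dnah9, Dnali1 and Dnaaf5, between 1.32 and 1.14 times. Those lowest in it were Dnah14 (0.61 times), Tekt3 (0.66), Tekt5 (0.82), Dnah8 (0.83) and Dnah17 (0.87). The median over the cilia genes was 1.04 times, against 0.871 times over all genes tested.

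The same lung had the lowest receptor share, 0.453%, and markers of several other cell types moved with it. The summed club cell markers stood at 2.23 times the median of the other 11 lungs, with 13 of 14 genes above all the others. AT2 markers stood at 1.93 times with 5 of 7 above all others, and AT1 markers at 1.43 times. Alveolar macrophage markers summed to 2.07 times, with 1 of 4 genes above and 1 below all others, and capillary markers to 1.41 times with 3 of 5 above. Sums below those of all other lungs were found for basal cell (0.81 times), neuroendocrine (0.77), cartilage (0.81) and testis (0.77) markers. The sums of cardiac and smooth muscle markers, at 1.97 and 1.31 times, lay within the range of the other lungs. Their part in the levels of the cilia genes was not tested, and the female values below are given with and without this lung where it moved them.

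**Figure D2:**
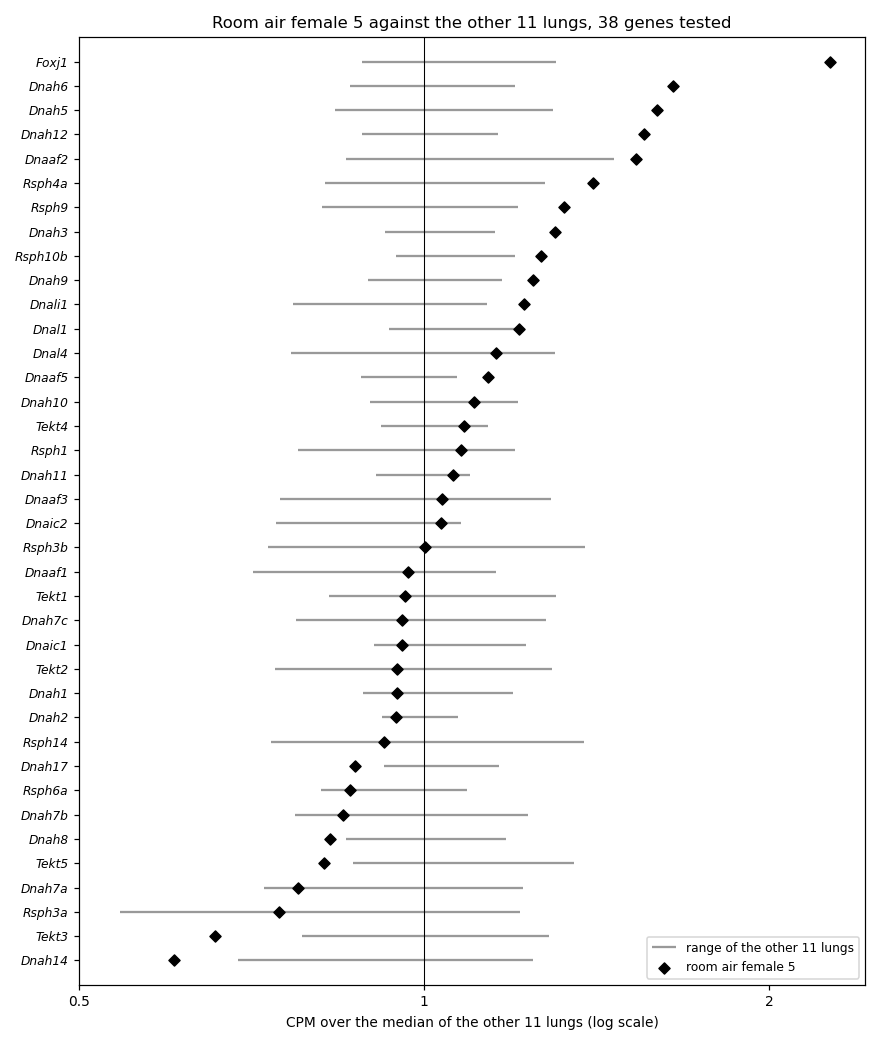
Level in room air female 5 (diamonds) over the median of the other 11 lungs (horizontal axis, log scale) for the 38 cilia genes tested, with the range of the other 11 lungs as bars. Foxj1 lies at 2.26 and Dnah14 at 0.61 times that median, and both fall outside the bars.

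The levels of the cilia genes were compared per kilobase of exon, as mean CPM per kilobase over the 12 lungs. Foxj1 was the highest at 10.9, followed by the light chain gene Dnal4 at 8.22, the spoke head gene Rsph1 at 7.05 and the assembly factor gene Dnaaf5 at 6.77. The inner arm heavy chains Dnah6 and Dnah2 stood at 6.11 and 5.91, and the outer arm intermediate chains Dnaic1 and Dnaic2 at 5.67 and 5.07. In all, 28 of the 39 genes reached at least 4 CPM per kilobase. At the lower end stood the spoke genes Rsph3b (2.09) and Rsph3a (1.28), and the assembly factor genes Dnaaf2 (0.689) and Dnaaf4 (0.150).

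The background estimate was set against each gene's counts. The share of a gene's counts that the receptor density would give over its exon length had a median of 27.7% over the 39 genes. It was lowest for Foxj1 (12.1%), Dnal4 (14.1%) and Rsph1 (17.7%). It passed 50% for Dnah7b (50.6%), Rsph3b (55.8%) and Rsph3a (93.7%). For Dnaaf2 and Dnaaf4 the estimate was 179% and 765% of the counts, so that it exceeded all that was counted on these genes. Dnaaf4, with 1 to 6 counts per lung, was the only one of the 39 that did not pass the filter on low counts.

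**Figure D3:**
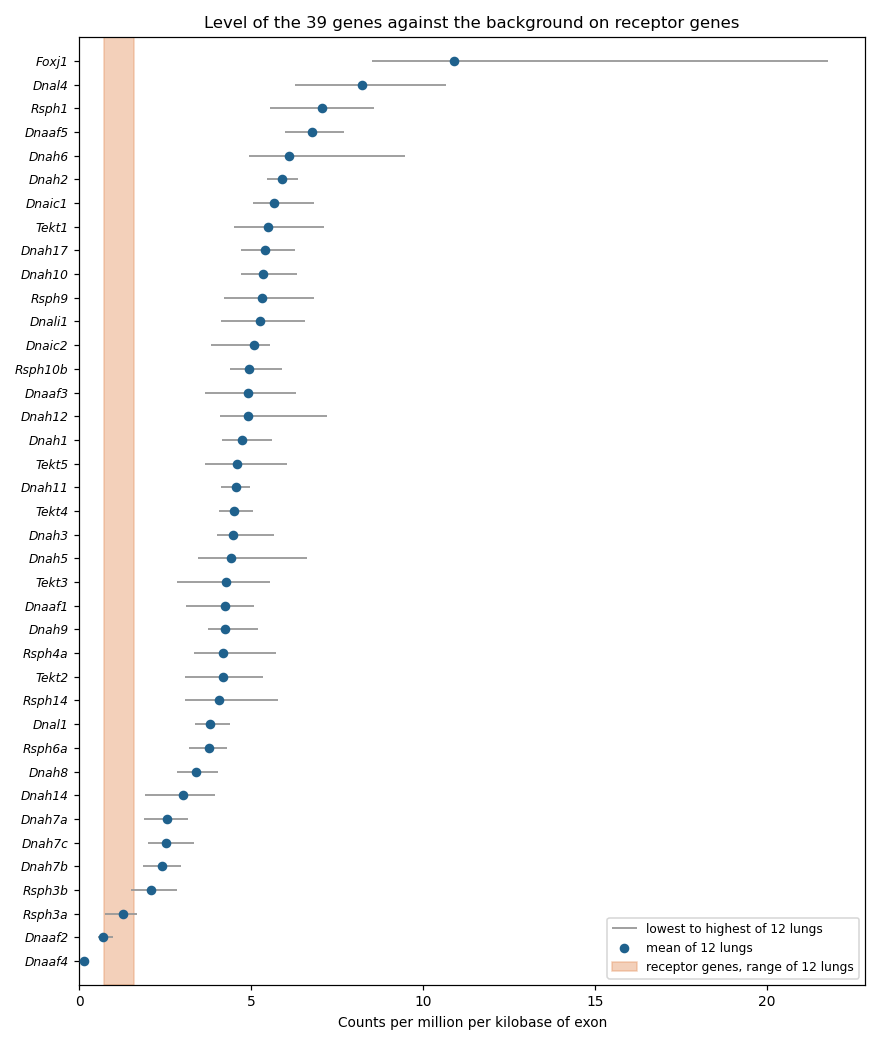
Mean CPM per kilobase of exon over 12 lungs (points) and the range over the lungs (lines) for the 39 genes, with the range of the receptor genes' density as a band. Foxj1 lies highest at 10.9, and Rsph3a, Dnaaf2 and Dnaaf4 lie in or below the band.

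Some members could not be separated from other genes in counting. Of the 50-base windows of their transcripts, 38.6% of Dnah7a, 29.6% of Dnah7b and 46.8% of Dnah7c also occurred in another member, and so did 54.4% of Rsph3a and 54.3% of Rsph3b. Exons of other genes covered 71.4% of the exon bases of Dnaaf2 and 96.6% of those of Dnaaf4. The strand setting of the counting and its handling of reads shared between genes are not given. Overlapping partners, such as the antisense Dnah2os on Dnah2, may therefore add or remove reads.

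Several members followed the receptor share from lung to lung, and others ran against it. Over the 12 lungs the correlation of log2 CPM with the receptor share was 0.97 for Dnah14, an inner arm heavy chain, 0.90 for Dnah8, a heavy chain best known from sperm, 0.89 for Dnah7a and 0.86 for Dnah7b. It was −0.82 for the light chain gene Dnal1, −0.81 for Foxj1 and −0.77 for Dnal4. These are descriptions over lungs that share library depth and background, and no test was made of them.

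Hyperoxia was compared with room air over both sexes, 6 lungs against 6, with edgeR's quasi-likelihood test. Calls required a fold change above 1.5 together with a p under 0.05 after Benjamini-Hochberg adjustment. Of the 38 cilia genes tested, 0 were called, where 0.0415% of all 45828 genes tested were. Without adjustment 0 had a p under 0.05, against 5.2% of all genes. Higher means were found for 23 and lower means for 15, with a median log2 fold change of 0.03, the same to this precision as the 0.03 of all genes. The 95% confidence interval lay within 1.5-fold in either direction for 37 of the 38, the exception being Dnaaf2 (−0.63 to 0.21). DESeq2's Wald test called 0 of them in each comparison of the study, and 40 of all genes over both sexes, 44 in females, 0 in males, 0 in the interaction and 791 between the sexes. At an unadjusted p under 0.05 it had 1 cilia gene over both sexes (4.09% of all genes), 2 in females (12.2%), 0 in males (2.19%), 2 in the interaction (7.5%) and 1 between the sexes (5.76%).

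The outer arm heavy chain gene Dnah5 (ENSMUSG00000022262), whose loss is a common cause of primary ciliary dyskinesia, had the smallest p over both sexes. It lies on chromosome 15 of GRCm38 from 28203752 to 28472052. In room air it stood at 84.1, 76.7 and 54.3 CPM in males and at 64.9, 104 and 69.7 CPM in females. After hyperoxia it stood at 60.3, 72.1 and 56.5 CPM in males and at 58.7, 68.6 and 60.4 CPM in females. The ranges overlapped in both sexes, and the 104 CPM belonged to room air female 5. Hyperoxia over room air gave a log2 fold change of −0.27 (SE 0.15, unadjusted p = 0.0779, adjusted p = 0.927, edgeR), and −0.14 without that lung.

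Rsph14, a radial spoke gene, was next in order of p over both sexes. Its level was 11.2, 10.6 and 12.8 CPM in room air males and 9.28, 11.6 and 12.7 CPM in room air females. In the hyperoxia lungs it was 10.1, 17.4 and 11.7 CPM in males and 14.1, 12.6 and 13.1 CPM in females. The highest value came from hyperoxia male 2, which also had the highest receptor share, 1.04%, and the lowest depth. Rsph14 had a log2 fold change of 0.20 (SE 0.13, adjusted p = 0.927, edgeR), of 0.08 without that lung, of 0.11 with the receptor share in the model and of 0.33 with background subtracted.

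In females, 3 lungs against 3, 0 of the 38 genes were called, where 0.00218% of all genes tested were. Without adjustment 1 had a p under 0.05, Foxj1, against 12.6% of all genes. The median log2 fold change was 0.02 over the cilia genes and 0.11 over all genes tested, and 26 of the 38 intervals lay within 1.5-fold. Higher means were found for 22 of the 38, against 60.8% of all genes, and without room air female 5 for 27 of the 38, against 55.7%. Among the heavy chains 10 of 15 were higher, and 13 without that lung, 6 with DESeq2 and 4 with the receptor share in the model. Without the lung 0 of the cilia genes had an unadjusted p under 0.05 (edgeR), against 4.89% of all genes. The CPM of the 2 groups did not overlap for 3 genes, against 17.2% of all genes: the inner arm heavy chain gene Dnah2 and Rsph6a, the sperm paralog of the spoke head gene Rsph4a, were higher, and the intermediate chain gene Dnaic1 was lower after hyperoxia. Without that lung their log2 fold changes were 0.06, 0.29 and −0.14.

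Foxj1 (ENSMUSG00000034227) encodes the regulator of the motile cilia programme and lies on chromosome 11 from 116330704 to 116335399, on the minus strand. In room air females it stood at 26.4, 57.1 and 27.5 CPM, and in hyperoxia females at 25.3, 29.5 and 23.6 CPM. In room air males it stood at 22.7, 27.6 and 22.3 CPM, and in hyperoxia males at 32.9, 23.2 and 24.8 CPM. The value of 57.1 CPM, from room air female 5, lay far above the other 11 lungs, which ranged from 22.3 to 32.9 CPM.

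The group means of Foxj1 were 37.0 ± 17.4 CPM (SD, n = 3) in room air females and 26.1 ± 3.02 CPM (SD, n = 3) in hyperoxia females. The log2 fold change in females was −0.51 (SE 0.21, unadjusted p = 0.0234, adjusted p = 0.364, edgeR). Without room air female 5 it was −0.05 (SE 0.18, unadjusted p = 0.797, edgeR), and −0.04 once the receptor share entered the model. In males the means were 24.2 ± 2.91 CPM in room air and 26.98 ± 5.22 CPM after hyperoxia, with a log2 fold change of 0.16 (SE 0.21, adjusted p = 1.00, edgeR), and of 0.04 with the receptor share in the model. Leaving out single male lungs moved this between −0.0061 without hyperoxia male 1, the lung at 32.9 CPM, and 0.27 without room air male 4, with 0.26 without hyperoxia male 2 and 0.11 without room air male 5. Over both sexes the log2 fold change was −0.17 (95% confidence interval −0.47 to 0.12). Its sign turned to 0.06 without room air female 5, and it was 0.00067 with the receptor share in the model and −0.27 and −0.26 without room air females 2 and 6.

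**Figure D4:**
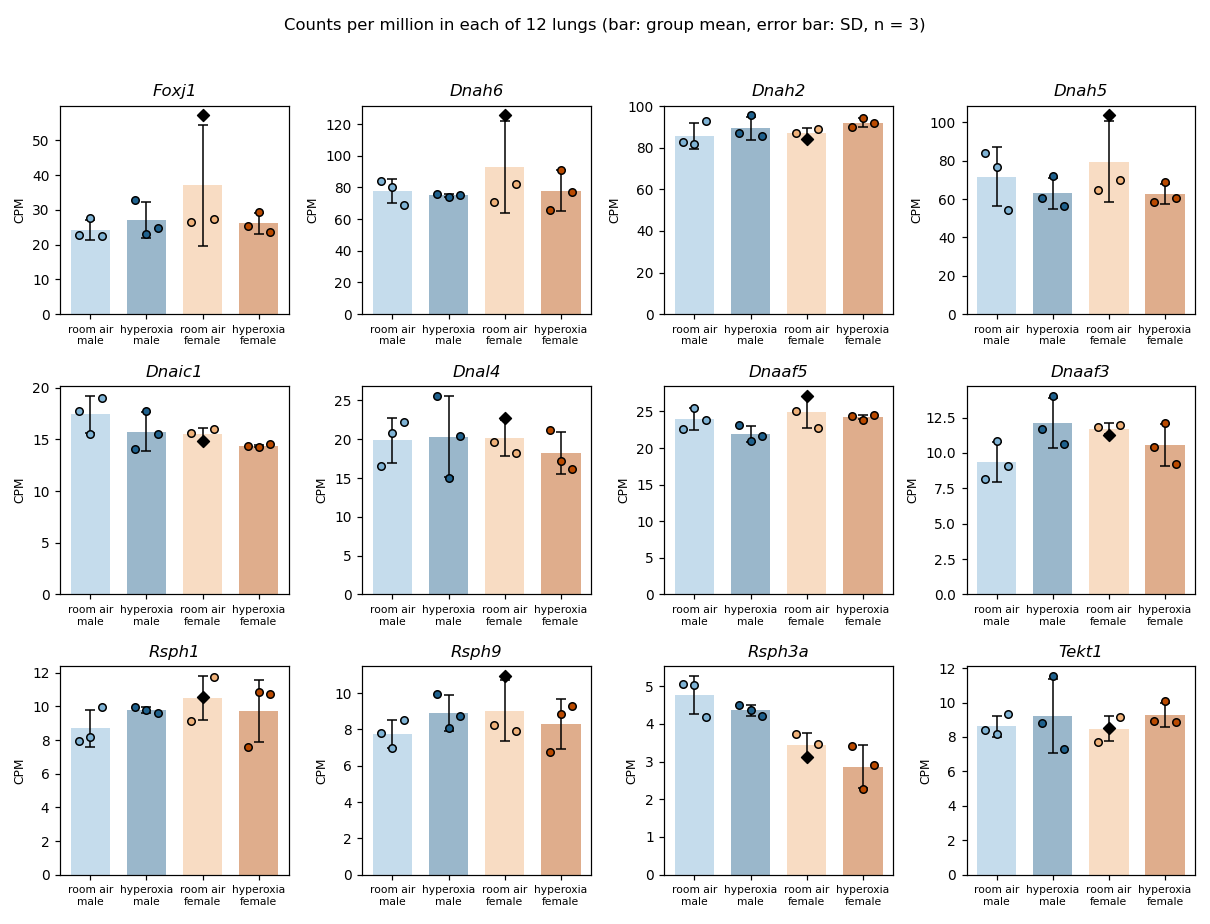
CPM of 12 of the cilia genes in each of the 12 lungs (points), with the group mean (bars) and SD (error bars, n = 3); black diamonds mark room air female 5. For Foxj1 that lung lies at 57.1 CPM and the other 11 lie between 22.3 and 32.9 CPM.

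Dnah6, the heavy chain with the highest level per kilobase, had the same outlying lung. Room air females stood at 70.6, 126 and 82.4 CPM and hyperoxia females at 65.6, 91.3 and 77.1 CPM, and the 126 CPM was again from room air female 5. Room air males stood at 83.9, 80.5 and 69.1 CPM and hyperoxia males at 76.1, 74.1 and 74.9 CPM. The log2 fold change in females was −0.25 (SE 0.21, adjusted p = 0.556, edgeR) and 0.03 without that lung. For Dnah5 the log2 fold change in females was −0.34 (SE 0.21) with it and −0.10 without it.

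Dnah2, an inner arm heavy chain gene, varied little. It stood at 87.2, 84.2 and 89.1 CPM in room air females and at 89.8, 94.3 and 92.0 CPM in hyperoxia females, groups that did not overlap. Males stood at 82.5, 81.8 and 92.9 CPM in room air and at 86.8, 95.5 and 85.4 CPM after hyperoxia, and overlapped. Its log2 fold change was 0.08 in females (95% confidence interval −0.27 to 0.44) and 0.06 in males (−0.30 to 0.41).

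Neither of the outer arm intermediate chains was called between exposures, and in the main fit neither had an unadjusted p under 0.05 (edgeR). Dnaic1 stood at 15.6, 14.8 and 16.04 CPM in room air females and at 14.3, 14.3 and 14.5 CPM in hyperoxia females. In males it was 17.8, 15.5 and 19.03 CPM in room air and 14.0, 17.7 and 15.5 CPM after hyperoxia. Its log2 fold change over both sexes was −0.13 (95% confidence interval −0.33 to 0.07). With the receptor share in the model it was −0.18 (unadjusted p = 0.0470, edgeR), where 7.38% of all genes had an unadjusted p under 0.05. Dnaic2 stood at 17.5, 24.4 and 24.7 CPM in room air females and at 23.5, 25.3 and 24.4 CPM in hyperoxia females. In its male groups it was 23.2, 23.2 and 23.6 CPM in room air and 21.3, 24.6 and 22.3 CPM after hyperoxia. Its single low value, 17.5 CPM, came from room air female 2, and its log2 fold change over both sexes was 0.05 (−0.15 to 0.25) with that lung and −0.02 without it.

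None of the 3 light chain genes was called between exposures, and in the main fit none had an unadjusted p under 0.05 (edgeR). Dnal4, highest of the 3 per kilobase, stood at 19.6, 22.7 and 18.2 CPM in room air females and at 21.3, 17.3 and 16.2 CPM in hyperoxia females. In males it was 16.6, 20.8 and 22.2 CPM in room air and 25.5, 15.02 and 20.5 CPM after hyperoxia. Both its highest and its lowest value thus came from hyperoxia males. Dnali1, a light chain gene of the inner arm, stood at 9.62, 14.0 and 9.72 CPM in room air females and at 11.9, 11.8 and 10.2 CPM in hyperoxia females. Its male values were 8.80, 10.7 and 11.9 CPM in room air and 13.0, 11.6 and 11.4 CPM after hyperoxia. Over both sexes the log2 fold changes of the 3 light chain genes ran from −0.05 to 0.11, with the smallest adjusted p at 0.932 (edgeR).

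Of the 4 assembly factor genes tested, 2 had higher and 2 lower means over both sexes. Dnaaf5, the best expressed, stood at 25.1, 27.1 and 22.8 CPM in room air females and at 24.3, 23.9 and 24.5 CPM in hyperoxia females. In males it was 22.6, 25.5 and 23.8 CPM in room air and 23.1, 21.0 and 21.7 CPM after hyperoxia. Its groups overlapped in both sexes, and its log2 fold change over both was −0.09 (95% confidence interval −0.27 to 0.10).

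In males, 3 lungs against 3, 0 of the 38 genes were called, as were 0% of all genes tested. Without adjustment 1 had a p under 0.05, against 2.7% of all genes, and this was Dnaaf3, an assembly factor gene. It stood at 8.14, 10.9 and 9.07 CPM in room air males and at 11.7, 14.0 and 10.6 CPM in hyperoxia males. The groups overlapped by 1 lung, since hyperoxia male 3 lay just below room air male 4. The log2 fold change was 0.37 (SE 0.17, unadjusted p = 0.0413, adjusted p = 1.00, edgeR). In females Dnaaf3 stood at 11.9, 11.3 and 12.01 CPM in room air and at 10.4, 12.1 and 9.19 CPM after hyperoxia, with a log2 fold change of −0.15 (SE 0.17).

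Across the males 13 genes had higher and 25 lower means, with a median log2 fold change of −0.05 against −0.01 over all genes tested. Of the 15 heavy chains 13 had lower and 2 higher means, where 48.0% of all genes were higher. Without hyperoxia male 1 this became 8 lower and 7 higher, without room air male 1 it became 10 and 5, and over the other alternatives 11 to 14 were lower. The intervals of 33 of the 38 genes lay within 1.5-fold. The 2 groups did not overlap for 1 gene, against 6.62% of all genes: the outer arm heavy chain gene Dnah11, at 72.0, 67.1 and 66.4 CPM in room air and 65.2, 62.3 and 61.6 CPM after hyperoxia. Its log2 fold change was −0.12 (95% confidence interval −0.45 to 0.21). The second smallest p belonged to Rsph3b, a spoke stalk gene, at 7.31, 6.26 and 7.23 CPM in room air and 6.13, 4.68 and 6.50 CPM after hyperoxia, with a log2 fold change of −0.25 (SE 0.21). It was −0.13 without hyperoxia male 2 and −0.54 with background subtracted. In females Rsph3b stood at 5.69, 6.42 and 5.77 CPM in room air and at 6.91, 6.41 and 8.85 CPM after hyperoxia.

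**Figure D5:**
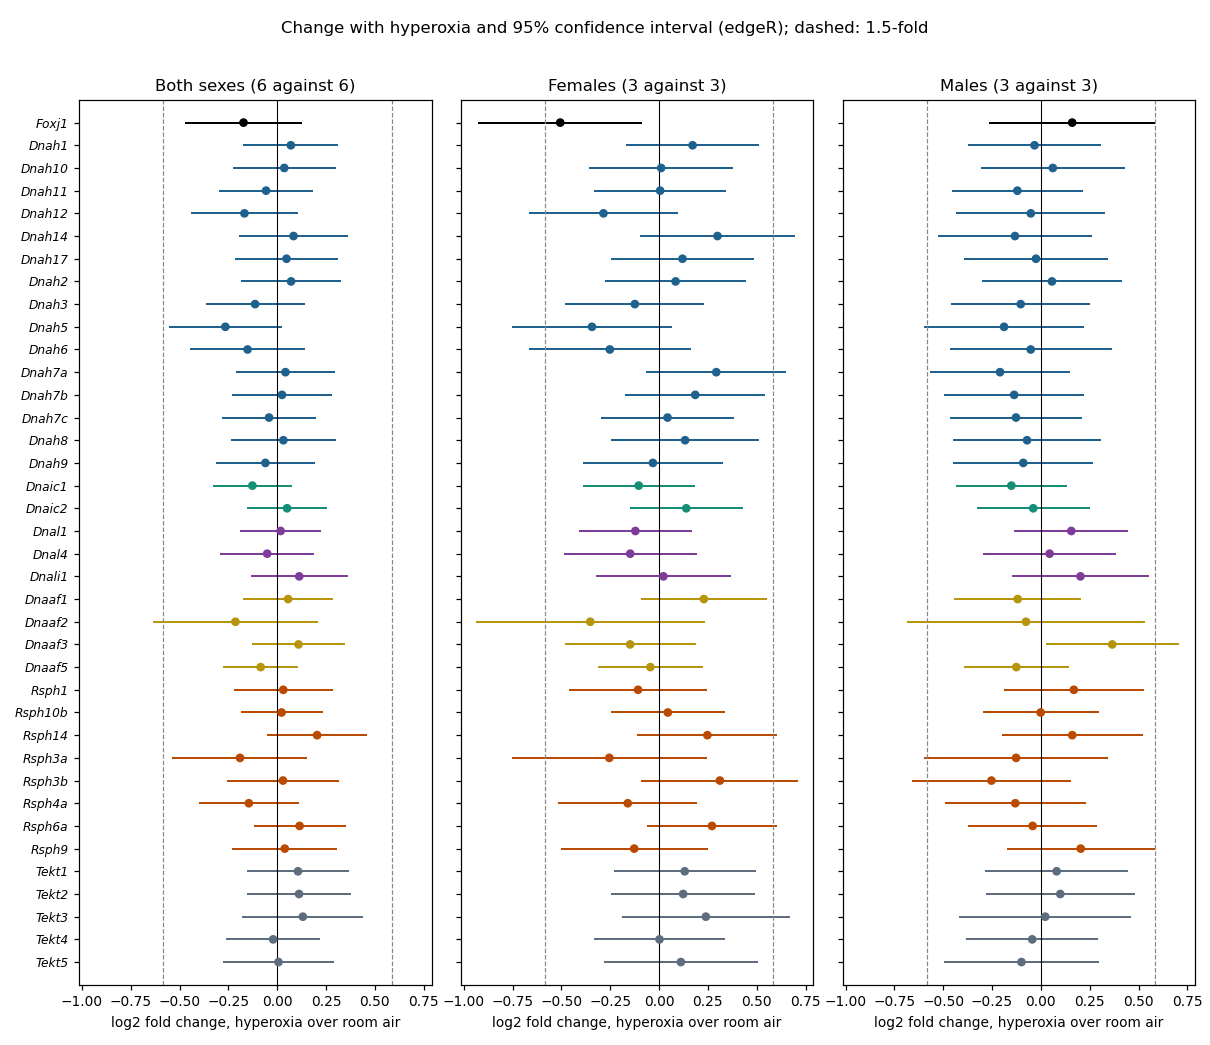
Log2 fold change of hyperoxia over room air (points) with its 95% confidence interval (lines) for the 38 genes tested, over both sexes, in females and in males; dashed lines mark 1.5-fold. Over both sexes 37 intervals stay between the dashed lines, and in females the interval of Foxj1, from −0.92 to −0.09, lies below 0 with room air female 5 in the fit.

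Of the spoke head genes, whose products meet the central pair, Rsph1 and Rsph9 had the highest levels per kilobase and overlapped between exposures in both sexes. Rsph1 stood at 9.14, 10.6 and 11.8 CPM in room air females and at 7.61, 10.8 and 10.7 CPM in hyperoxia females. In males it was 7.97, 8.17 and 9.96 CPM in room air and 9.97, 9.80 and 9.60 CPM after hyperoxia. All 4 ranges of Rsph1 overlapped. Rsph9 stood at 8.26, 10.9 and 7.90 CPM in room air females and at 6.74, 8.88 and 9.28 CPM in hyperoxia females. Its male values were 7.80, 6.96 and 8.51 CPM in room air and 9.97, 8.05 and 8.71 CPM after hyperoxia. Over both sexes the log2 fold changes were 0.03 (95% confidence interval −0.22 to 0.28) for Rsph1 and 0.04 (−0.23 to 0.30) for Rsph9.

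Higher means after hyperoxia were found in females for 5 of 5 tektin genes, against 60.8% of all genes, and for 4 of 5 without room air female 5, in which Tekt3 and Tekt5 were lowest. Tekt3 had a log2 fold change of 0.24 with that lung and 0.02 without it, and Tekt5 of 0.11 and −0.01. In males 3 of the 5 had higher means, and in each sex 0 had an unadjusted p under 0.05 (edgeR). Tekt1, the highest per kilobase, stood at 7.72, 8.52 and 9.16 CPM in room air females and at 8.92, 10.1 and 8.85 CPM in hyperoxia females. In males it was 8.39, 8.17 and 9.31 CPM in room air and 8.79, 11.5 and 7.31 CPM after hyperoxia. The widest spread of Tekt1 was thus within hyperoxia males. Tekt5, which is best known from sperm, stood at 8.46, 6.62 and 9.09 CPM in room air females and at 7.96, 8.09 and 9.97 CPM in hyperoxia females. In its male groups it was 7.06, 7.65 and 10.9 CPM in room air and 9.08, 7.84 and 7.01 CPM after hyperoxia. The 5 testis markers, protamines and other sperm genes, summed to 9.73 to 16.2 CPM in all lungs. Their background shares ran from 32.0% to 51.0%, and those of the tektin genes from 22.1% to 28.4%.

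The responses of the sexes were compared as an interaction. It called 0 of the 38 genes, as it did 0% of all genes tested. Without adjustment 2 had a p under 0.05, against 8.46% of all genes, Foxj1 and Dnaaf3, and the difference was negative for both. The difference, female change minus male change, was −0.67 on the log2 scale for Foxj1 (SE 0.30, unadjusted p = 0.0347, adjusted p = 0.578, edgeR) and −0.51 for Dnaaf3 (SE 0.24, unadjusted p = 0.0412, adjusted p = 0.578, edgeR). Without room air female 5 the difference for Foxj1 was −0.21 (SE 0.24) and for Dnaaf3 −0.54 (SE 0.26). The interval of the difference lay within 1.5-fold for 12 of the 38 genes and reached past it for the others.

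Females were compared with males over both exposures, 6 lungs against 6. Of the 38 genes 0 were called, where 1.22% of all genes tested were. Without adjustment 1 had a p under 0.05, against 6.88% of all genes, and the same gene was the one whose groups did not overlap, against 1.2% of all genes. It was Rsph3a, the paralog of Rsph3b. It stood at 5.06, 5.04 and 4.18 CPM in room air males and 4.50, 4.35 and 4.21 CPM in hyperoxia males, and at 3.72, 3.12 and 3.48 CPM in room air females and 3.41, 2.27 and 2.92 CPM in hyperoxia females. The log2 fold change, female over male, was −0.53 (SE 0.17, unadjusted p = 0.00482, adjusted p = 0.199, edgeR), −0.50 without room air female 5 and −3.33 with background subtracted. Background would give 93.7% of its counts and Rsph3b shares 54.4% of its windows, so its reads cannot be told apart from either. For 36 of the 38 genes the interval between the sexes lay within 1.5-fold.

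Other genes of the motile cilium were followed as a list of 65 that holds none of the 39, of which 64 were in the table. Of these 0 were called over both sexes, in females, in males, in the interaction or between the sexes. Over both sexes 0 were higher and 3 lower at an unadjusted p under 0.05, 4.69% of the list against 5.2% of all genes. These were Mlf1, Pifo and Tppp3, and the median log2 fold change of the list was −0.02. In females 2 were higher and 4 lower, 9.38% of the list against 12.6% of all genes: Gmnc and Ccdc103 had log2 fold changes of 0.41 and 0.60, and Sntn, Enkur, Tmem212 and Tppp3 of −0.71, −0.57, −0.53 and −0.52. Sntn encodes a protein of the ciliary tip and Tppp3 a tubulin-binding protein of multiciliated cells. The last 4 stood at 1.80 to 2.09 times the median of the other lungs in room air female 5, and Gmnc and Ccdc103 at 0.78 and 0.77 times. Without that lung 0 of the 64 were lower at an unadjusted p under 0.05 in females or over both sexes (edgeR), and Gmnc and Ccdc103 had log2 fold changes of 0.37 and 0.57 in females. In males 0 were higher and 1 of the 64, Mlf1, was lower, where 2.7% of all genes passed in either direction.

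The summed level of this list was 1578 CPM in room air female 5 and 1214 to 1376 CPM in the other 11 lungs. Hydin of the central pair (86.7 to 105 CPM in the other 11 lungs) reached 115 CPM in it, and Rfx3, one of the RFX factors, reached 53.4 CPM against at most 48.8 CPM elsewhere. Mcidas, which starts the multiciliated fate, stood at 0.85 times and Trp73 at 0.98 times the median of the others in that lung. Genes of ciliary trafficking, 32 in number, had 0 calls in each comparison and summed to 1.12 times in that lung. The 18 genes of cytoplasmic dynein and dynactin, the motor of the cell body and not of the cilium, also had 0 calls. Of these 18, 5 were lower in females at an unadjusted p under 0.05, 27.8% of the list against 12.6% of all genes in either direction, and the 18 summed to 1.42 times in room air female 5. Without that lung, and so with fewer room air females, 0 of the 18 had an unadjusted p under 0.05 in females (edgeR), against 4.89% of all genes. Their means in females were still lower for 15 of the 18, with a median log2 fold change of −0.25 against 0.05 over all genes. With the lung 16 were lower and the median was −0.39, against 0.11 over all genes.

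Likeness to Foxj1 was described by the correlation of log2 CPM over the 12 lungs. Among the cilia genes it was highest for Dnah6 (0.84), Dnah12 (0.75), Rsph10b (0.68) and Dnah5 (0.64). Without room air female 5 these values were 0.34, 0.09, 0.31 and 0.01. In all, 11 of the cilia genes reached at least 0.5 over the 12 lungs. The lowest were Dnah14 (−0.84), Dnah8 (−0.75) and Dnah7b (−0.60), with −0.74, −0.78 and −0.67 without that lung. Of 41162 genes ranked, Dnah6 took rank 132. The 10 most like genes were 5330417C22Rik, Arsb, Dusp18, Fhdc1, Tom1l1, Hspa4l, Snora23, Tmem212, Gm22442 and Btla, with correlations from 0.94 to 0.91, and Tmem212 was the only one from the lists of ciliary genes. The correlation of 5330417C22Rik was 0.94 over 12 lungs and 0.87 without room air female 5.

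Foxj1 was also set against 1 marker each of club and AT2 cells over the 12 lungs, with permutation tests adjusted over 4 tests. With Scgb1a1 Pearson's r was 0.881 (permutation p = 0.00107, adjusted p = 0.00428) and Spearman's rho 0.755 (permutation p = 0.00619, adjusted p = 0.00825). Without the 2 lungs farthest from the median of Foxj1, room air female 5 and hyperoxia male 1, r was 0.667. With Sftpc r was 0.722 (permutation p = 0.00333, adjusted p = 0.00666) and rho 0.573 (permutation p = 0.0557, adjusted p = 0.0557), and r was 0.408 without the same lungs. Both relations thus rested on these lungs in part. Of the 41162 genes ranked, 0.0802% had a correlation with Foxj1 as high as that of Scgb1a1 and 3.72% as high as that of Sftpc, and Foxj1 itself ran against the receptor share with a correlation of −0.81. The permutations shuffled lungs across the 4 groups, so differences between groups enter these p-values. Groups of 3 lungs are too small for a value within each group.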

How the data were processed

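RNA-Seq of 12 miR-30a -/- lungs was analysed, and each count column was matched to 1 sample by its title. Per the methods, the authors used Trim Galore for trimming, STAR against mm10 for mapping and featureCounts for counting, and the deposited values are their unnormalized gene counts; versions and the strand setting are not given in the sources used here. The sample descriptions name a NEBNext directional kit with rRNA depletion and the methods a QIAseq stranded kit. The paper's ComBat-seq step was not repeated, and its number of RUVr factors is not given, so the main model has none.

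The cilia genes, lists, named genes and tests were chosen with earlier results of these data known. Counts were fitted with edgeR 4.0.16 (R 4.3.3, limma 3.58.1): robust quasi-likelihood, 4 groups, upper-quartile normalization, 45828 genes kept by filterByExpr, Benjamini-Hochberg adjustment over all of them. CPM use the normalized library sizes. Confidence intervals use a normal quantile and a standard error derived from the log2 fold change and its F statistic. They are narrower than the test implies, so the counts of intervals within 1.5-fold may be too high. For Dnah7a in the interaction the interval, 0.0034 to 1.00, leaves out 0, while the unadjusted p was 0.0585 (edgeR). Depth was 8763033 to 16741694 counts, and floors of 3 counts cover counting error only. p-values measure the spread between lungs. Exon lengths, overlaps and coordinates came from GENCODE mouse release 21 (GRCm38), which matched all 39 genes, and promoters from RefSeq (GRCm38.p6).

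Values in every lung are given for Foxj1, the 2 genes of each symbol family with the highest CPM per kilobase, and the 2 with the smallest p in each exposure comparison. Dnah11 and Rsph3a lie outside that rule and were chosen after their values were seen. On simulated data of 45065 genes, the fit over both sexes recovered 98% of 100 genes changed 2-fold and 100% of 100 changed 4-fold, with 7 false calls, and in females 85% and 100%. The changed genes were drawn from well-counted genes and changed alike in both sexes. No outlying lung and no differences in receptor share were simulated, so these rates need not hold for the cilia genes. Alternatives were TMM, DESeq2 1.42.0, filters, RUVr with 1 factor, the receptor share as covariate, the adjusted p alone, each lung left out, 1 sex alone, a replicate block and, chosen after seeing the data, background subtracted. Python 3.11.15, pandas 2.3.3, scipy 1.17.1 and matplotlib 3.10.9 made the tables, the 100000-fold permutations and the figures.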

Additional observations from a re-analysis of the deposited data

Results flagged for a closer look

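Each cilia gene was checked for a lung far from the others among the 6 room air lungs and among the 6 hyperoxia lungs, by the gap to the nearest lung over the whole range (Dixon's 95% critical ratio of 0.625). Of these 78 groups 5 passed, 4 of them through room air female 5, and chance passes about 1 in 20. The share over all genes was not computed. In room air female 5, Foxj1 was at 57.1 CPM with the next highest lung at 27.6 CPM (ratio 0.849). Dnah6 was at 126 CPM in the same lung with the next at 83.9 CPM (0.739), and Rsph4a at 20.9 CPM with the next at 16.1 CPM (0.702). Dnah9 was at 83.1 CPM in it with the next at 69.2 CPM (0.654). In room air female 2, Dnaic2 was at 17.5 CPM with the next lowest lung at 23.2 CPM (0.784).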

How the results depend on the processing

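With each alternative that was run, 0 of the cilia genes were called in any of the 5 comparisons. With 1 RUVr factor Dnah14 and Dnah7a passed the adjusted p alone in females (log2 fold changes 0.32 and 0.29, adjusted p = 0.00356 and 0.0226) and in the interaction (0.50 and 0.52), and Rsph3a did between the sexes (−0.53, adjusted p = 0.0343), each under 1.5-fold. In that fit 16.7% of all genes passed in females, 11.8% in the interaction and 4.65% between the sexes, and Dnah14 and Dnah7a are members that follow the receptor share. The median log2 fold change of the cilia genes in females, 0.02, was −0.087 with DESeq2, 0.086 with a filter of 10 counts in every library and 0.13 with background subtracted, beyond the spread of 0.067 between lungs, and the cause was not tested. With single lungs left out it ran from −0.041 to 0.052, and from −0.0060 to 0.051 over both sexes and −0.087 to 0.00048 in males. Foxj1 in females ran from −0.70 to −0.04 over the alternatives and in the interaction from −0.87 to −0.08. Animal numbers 2 and 5 recur in both female groups, with correlations of 0.049 and −0.150 between the lungs of the same number. Pairs of different number ran from −0.235 to 0.202. Whether the lungs of the same number share a litter cannot be told from these values. With the animal number as a replicate block 0 cilia genes were called in females, and Foxj1 had a log2 fold change of −0.65 (adjusted p = 0.0551, edgeR). In that fit 451 of all genes were called, against 80 with the female lungs alone and no block and 1 with all lungs. Numbers 4 and 6 occur in 1 exposure each, so the block estimate rests on numbers 2 and 5, including room air female 5. It leaves few residual degrees of freedom. With 1 RUVr factor 86 of all genes were called over both sexes, 1897 in females, 18 in males, 2152 in the interaction and 1006 between the sexes, against 19, 1, 0, 0 and 559. DESeq2 called 40 over both sexes and 44 in females, the receptor share as covariate gave 22 in females, and 206 were called in females without room air female 6. Dnaaf4, with at most 6 counts, did not pass the filter on low counts.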
